A study of Mus musculus with 21 samples.

Results

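TMPyP4 is a cationic porphyrin that stacks on G-quadruplexes (G4s), the stacked planar structures that guanine-rich DNA or RNA can fold into, and thereby stabilises them. RTEL1 is a DNA helicase that unwinds G4s and takes telomeric loops apart, so cells that keep RTEL1 hold one of the enzymes that act on the structures the ligand binds. The series asks how gene expression changes when G4s persist, either because a ligand stabilises them or because the Rtel1 gene has been deleted. The ligand arm is described here, in 6 of the 21 libraries: 3 libraries of Rtel1f/f mouse embryonic fibroblasts (MEFs, written Rtel1 F/F here) that received both Ad-GFP and TMPyP4 (+TMPyP4), and 3 libraries of the same cells infected with Ad-GFP alone (+GFP).

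Rtel1 F/F MEFs carry floxed Rtel1 alleles, which stay intact until Cre is delivered. Ad-GFP is an adenovirus that delivers GFP and no Cre, so both the +TMPyP4 and the +GFP cells kept Rtel1, and Ad-Cre delivers the recombinase (+Cre). RNA was collected 96 h after infection and TMPyP4 was present at 10 µM over the last 48 h. The labels name no vehicle for the untreated cells. A further group of Rtel1 F/F cells was infected with Ad-GFP and expressed RTEL1 with the C1252A/C1255A substitutions from a transgene, and is called CA +GFP here. Its cells also kept the floxed alleles and received no ligand. Each group had 3 libraries labelled as biological replicates, with no statement of whether they came from separate embryos or separate cultures of 1 line, so a p-value covers only the spread between these libraries. PolyA RNA was sequenced, and each library held between 32069888 and 51938593 counts, with 32069888 to 43013208 in +TMPyP4 and 43732660 to 47300825 in +GFP. All 24454 genes in the table were considered and 13719 passed the filter on low counts.

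The +GFP libraries stood apart from every other library of the Rtel1 F/F line. In a principal component analysis of log2 CPM (the counts of a gene per 1000000 counts of its library) over the 15 libraries of this line, component 1 took up 52.4% of the variance and component 2 took up 13.1%. The +GFP libraries lay at 55.73, 76.41 and 72.91 on the first component, the +TMPyP4 libraries at 26.37, 2.053 and 10.64, and the 9 others between -47.65 and -6.147. The 9 others were the +Cre and CA +GFP libraries and those of cells with the same mutant transgene given Ad-Cre. Untreated CA +GFP cells lay on the far side of +TMPyP4 from +GFP, so a difference between +TMPyP4 and +GFP cannot be told apart from a difference between the +GFP libraries and all others. The gene lists and the genes named from them are therefore given against +GFP, against CA +GFP and against +Cre. A limit is that CA +GFP cells also carried mutant RTEL1 and +Cre cells had been given Ad-Cre to delete Rtel1. The 3 comparisons share the +TMPyP4 libraries, so they are not independent of each other.

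**Figure D1:**
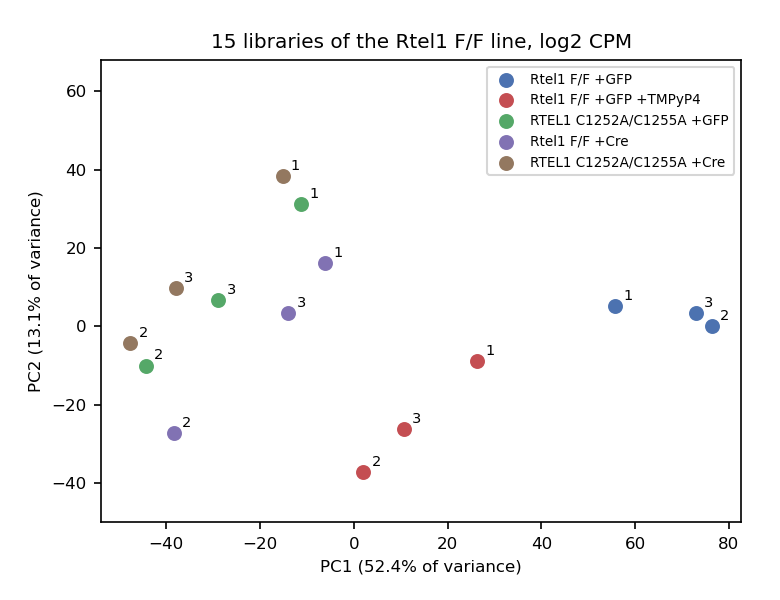
Principal components 1 and 2 of log2 CPM for the 15 libraries of the Rtel1 F/F line, 1 point per library, coloured by group. The 3 +GFP libraries lie between 55.73 and 76.41 on the first component, the 3 +TMPyP4 libraries between 2.053 and 26.37, and the other 9 below -6.

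The amino acid response is a program that cells switch on when amino acids, tRNA charging or protein folding fail. Phosphorylation of eIF2 lowers general translation and favours that of ATF4, a bZIP factor that binds C/EBP-ATF response elements and switches on amino acid synthesis enzymes, amino acid carriers and tRNA synthetases. Of the 34 genes listed for this response, 22 were higher in +TMPyP4 than in each of the 3 groups compared. Of all 13719 genes tested, 184 were. The sequences before 4 of the listed genes are shown for the core of the C/EBP-ATF element, written here as TGATGNAA and searched on both strands. The promoters of Vegfa, Kit and Txnip are shown because they hold a G4 motif, defined as 4 runs of at least 3 G separated by 1 to 7 bases. Capitals mark the matches, and each sequence is the 250 bases before the start site, 5′ to 3′ on the gene's strand, from RefSeq on GRCm38.p6. The Asns window is at chr6:7693210-7693459 on the minus strand, with a match from -23 to -16 counted from the start site. The Chac1 window is at chr2:119350992-119351241 on the plus strand, and its match on the opposite strand runs from -193 to -186. The Slc7a11 window, at chr3:50443614-50443863 on the minus strand, holds a match on its own strand from -66 to -59 and a match on the opposite strand from -47 to -40. The Nupr1 window, at chr7:126625471-126625720 on the minus strand, holds a G4 motif from -185 to -167 and an element core on the opposite strand from -110 to -103.
Asns: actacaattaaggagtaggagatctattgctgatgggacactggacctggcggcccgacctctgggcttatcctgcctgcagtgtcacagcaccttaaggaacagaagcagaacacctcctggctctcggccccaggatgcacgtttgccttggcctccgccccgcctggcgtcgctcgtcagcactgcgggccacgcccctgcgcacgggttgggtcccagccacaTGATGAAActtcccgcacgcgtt
Chac1: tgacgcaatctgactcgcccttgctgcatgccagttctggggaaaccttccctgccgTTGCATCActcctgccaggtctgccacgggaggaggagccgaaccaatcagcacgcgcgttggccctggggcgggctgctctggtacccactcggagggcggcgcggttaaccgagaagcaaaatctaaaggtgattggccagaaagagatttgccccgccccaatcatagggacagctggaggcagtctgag
Slc7a11: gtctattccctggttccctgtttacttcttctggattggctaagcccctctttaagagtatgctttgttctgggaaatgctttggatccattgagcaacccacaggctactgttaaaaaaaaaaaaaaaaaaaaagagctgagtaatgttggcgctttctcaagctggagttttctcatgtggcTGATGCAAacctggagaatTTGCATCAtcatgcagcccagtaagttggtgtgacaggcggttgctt
Nupr1: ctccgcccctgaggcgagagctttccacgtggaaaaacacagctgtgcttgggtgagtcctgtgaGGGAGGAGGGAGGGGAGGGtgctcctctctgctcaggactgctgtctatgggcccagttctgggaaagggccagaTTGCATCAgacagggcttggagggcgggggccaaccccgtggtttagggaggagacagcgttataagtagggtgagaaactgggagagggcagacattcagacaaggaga
The G4 motif of Vegfa runs from -73 to -55 in a window at chr17:46032378-46032627 on the minus strand, and that of Kit from -98 to -80 in a window at chr5:75574737-75574986 on the plus strand. The Txnip window is at chr3:96557707-96557956 on the plus strand and has its G4 motif on the opposite strand, from -246 to -224.
Vegfa: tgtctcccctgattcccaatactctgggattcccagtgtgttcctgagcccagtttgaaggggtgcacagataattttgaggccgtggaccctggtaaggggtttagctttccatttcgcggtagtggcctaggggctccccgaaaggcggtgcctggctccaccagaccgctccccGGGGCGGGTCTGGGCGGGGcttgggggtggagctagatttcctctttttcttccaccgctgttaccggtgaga
Kit: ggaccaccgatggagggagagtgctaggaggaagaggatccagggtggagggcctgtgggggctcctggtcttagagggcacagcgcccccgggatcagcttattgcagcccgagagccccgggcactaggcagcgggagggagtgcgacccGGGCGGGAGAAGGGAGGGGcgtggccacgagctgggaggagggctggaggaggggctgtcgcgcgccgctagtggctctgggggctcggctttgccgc
Txnip: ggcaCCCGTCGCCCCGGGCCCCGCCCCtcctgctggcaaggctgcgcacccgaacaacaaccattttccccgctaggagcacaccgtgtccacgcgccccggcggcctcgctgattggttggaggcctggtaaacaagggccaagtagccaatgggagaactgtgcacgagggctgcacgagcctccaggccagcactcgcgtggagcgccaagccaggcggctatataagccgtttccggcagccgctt
The element core was found in 955 of 27025 promoters in the reference table (3.53%) and in 9 of the 29 genes of the ATF4 list that have a window there (31%). A G4 motif lay on the gene's strand in 8.58% of all promoters and on the opposite strand in 8.51%, beside 10.3% of the ATF4 list on each. The list was made of genes known for the ATF4 response, so its share of element cores is not a test. The 4 promoters printed from it were picked among those with a match, and the windows of Atf4, Trib3, Psph, Mthfd2, Vldlr and Stc2 held no element core. Vegfa, Kit and Txnip were likewise picked among genes with a G4 motif. Of the promoter G4 oncogenes described below, Hras, Bcl2, Pdgfa, Src and Myb also held one, while Hif1a, Mycn and Tert held none. The window of Arrdc4, the paralog of Txnip, held none either. These matches are descriptions of sequence and do not show binding or folding. Only 79% of the genes tested have a promoter window, so the share of G4 promoters among changed genes was not compared.

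Rtel1 itself (chr2:181319711-181356616) was kept in the ligand-treated cells. It stood at 66.3, 79.0 and 70.9 CPM in +TMPyP4 and at 66.2, 59.1 and 60.2 CPM in +GFP, a log2 fold change of 0.22 ± 0.077 (SE) that missed the threshold (adjusted p = 0.0281, edgeR quasi-likelihood test). The +Cre libraries held 29.9, 31.9 and 26.8 CPM, below each library of the other groups, and the CA +GFP libraries, which carry the transgene as well, held 338, 328 and 331 CPM.

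Of the 13719 genes tested, 4114 differed between +TMPyP4 and +GFP at an adjusted p of at most 0.01, which is 30% of all genes tested. Of these, 2278 were higher in +TMPyP4 (16.6%) and 1836 were lower (13.4%). The median absolute log2 fold change of the called genes was 0.58, and 921 of them differed at least 2-fold, 200 higher and 721 lower. The +TMPyP4 and +GFP libraries did not overlap in 7925 of all genes tested (57.8%), so a lack of overlap does not by itself set a gene apart. Against CA +GFP, 2333 genes were called (17.0%), 1363 of them higher (9.94%) and 970 lower (7.07%). Against +Cre, 2088 genes were called (15.2%), 1247 higher (9.09%) and 841 lower (6.13%). The counts of each gene list below are to be read beside these shares. The median log2 fold change over all genes tested was -0.01, 0.014 and 0.003 in the 3 comparisons. Without +GFP replicate 2 the number of genes called higher against +GFP was 1156 and without +GFP replicate 3 it was 1257, so each of these libraries moved that count by more than 1.5 times. Counting, after the data were seen, the genes called the same way in all 3 comparisons gave 184 that were higher in +TMPyP4 than in each other group and 67 that were lower. These numbers fell to 108 and 33 without +TMPyP4 replicate 2, to 108 and 32 without +TMPyP4 replicate 3 and, for the lower genes, to 35 without +TMPyP4 replicate 1. Leaving out +GFP replicate 2 or 3 gave 120 or 122 higher genes.

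Genes of the ATF4 stress response rose in +TMPyP4. Of the 34 list members, all tested, 24 were higher and none was lower than in +GFP, with a median log2 fold change of 0.62. Against CA +GFP 31 were higher and none lower (median 0.83), and against +Cre 28 were higher and none lower (median 0.71). Of all 13719 genes tested, 16.6%, 9.94% and 9.09% were higher in these comparisons, and 184 genes were higher in all 3. The list was written with earlier results of these data known, so its counts are not a test. Of the 184 genes higher in all 3 comparisons, 22 were members of this list: Atf4, Trib3, Asns, Chac1, Psat1, Psph, Mthfd2, Vldlr, Cebpg, Slc7a11, Slc3a2, Aars, Gars, Sars, Wars, Cars, Eprs, Nupr1, Cth, Aldh18a1, Pycr1 and Stc2. With 1 library left out, the calls of Cebpg, Slc3a2 and Pycr1 against +GFP were lost without +GFP replicate 2 or 3 or +TMPyP4 replicate 3, those of Cebpg and Slc3a2 also without +TMPyP4 replicate 2 and those of Slc3a2 and Pycr1 also without +TMPyP4 replicate 1, and that of Gars against +Cre was lost without +Cre replicate 3.

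Atf4 (chr15:80255184-80257545), the factor the program is named for, stood at 663, 742 and 752 CPM in +TMPyP4 and at 470, 414 and 452 CPM in +GFP. The groups did not overlap, and the log2 fold change was 0.69 ± 0.076 against +GFP (adjusted p = 1.9e-06), 0.52 ± 0.075 against CA +GFP (adjusted p = 5.2e-05) and 0.55 ± 0.075 against +Cre (adjusted p = 3.2e-05). Its partners among the bZIP factors were less uniform. Atf3, a stress-induced repressor, rose from 8.39, 7.96 and 8.01 to 19.6, 22.4 and 22.0 CPM (log2 fold change 1.39 ± 0.10, adjusted p = 2.5e-08) and was also higher than in +Cre, but against CA +GFP the log2 fold change was 0.33 (adjusted p = 0.0194, and 0.00322 with a block for the replicate number). Ddit3, which encodes the pro-apoptotic factor CHOP, stood at 49.1, 51.8 and 57.0 CPM against 36.3, 42.7 and 45.5 CPM in +GFP (log2 fold change 0.34 ± 0.12, adjusted p = 0.0269) and was called higher only against CA +GFP (0.86) and +Cre (1.3).

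Enzymes that make and recycle amino acids were among the members that rose. Cth (chr3:157894248-157925081), the cystathionine gamma-lyase that makes cysteine, stood at 132, 145 and 145 CPM in +TMPyP4 and at 40.6, 26.3 and 30.7 CPM in +GFP. Every treated library was more than 3 times above every untreated one, with a log2 fold change of 2.12 ± 0.14 (adjusted p = 5.0e-09), and the values were 2.00 against CA +GFP and 1.68 against +Cre. Asns, the asparagine synthetase whose promoter is printed above, rose from 383, 259 and 299 to 536, 604 and 595 CPM (log2 fold change 0.88 ± 0.12, adjusted p = 2.0e-05). Psph, the last enzyme of serine synthesis, rose from 108, 89.3 and 104 to 195, 205 and 235 CPM (1.08 ± 0.12, adjusted p = 3.0e-06). Mthfd2, a mitochondrial folate enzyme that uses serine-derived carbon, rose from 232, 186 and 208 to 395, 414 and 413 CPM (0.96 ± 0.073, adjusted p = 3.1e-08). Each of these 3 was also called higher against CA +GFP and +Cre, with log2 fold changes between 0.72 and 1.14. Psat1, the aminotransferase before Psph in the serine pathway, was higher by 0.79 on the log2 scale against +GFP, and by 0.39 and 0.41 against CA +GFP and +Cre, where leaving out any 1 of the 6 libraries ended the call.

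Carriers and signalling members moved with the enzymes, in part with less margin. Slc7a11, the cystine carrier, stood at 64.3, 60.5 and 57.9 CPM in +TMPyP4 and at 53, 34.8 and 34.2 CPM in +GFP (log2 fold change 0.58 ± 0.12, adjusted p = 0.00101), and was higher by 1.73 and 1.23 than in CA +GFP and +Cre. Vldlr, a lipoprotein receptor, rose from 91.2, 80.9 and 78.6 to 160, 168 and 158 CPM and was higher by 0.95, 2.14 and 1.70 in the 3 comparisons. Trib3 (chr2:152337425-152344060), a pseudokinase that feeds back on ATF4, stood at 82.3, 62.1 and 82.6 CPM against 44.5, 38.5 and 43.5 CPM (0.84 ± 0.20, adjusted p = 0.00227), and at 13.7 to 25.2 CPM in the CA +GFP and +Cre libraries. Chac1, which degrades glutathione, was higher by 0.62 ± 0.17 than in +GFP (adjusted p = 0.00777) and by 1.46 and 1.24 than in CA +GFP and +Cre. Nupr1, a stress-induced chromatin protein, was higher by 0.68, 0.61 and 0.71 in the 3 comparisons. Stc2, a secreted glycoprotein, rose from 2.52, 1.69 and 2.20 to 6.85, 5.85 and 7.28 CPM (1.64 ± 0.20, adjusted p = 6.8e-06) and was higher by 1.43 and 1.36 than in CA +GFP and +Cre. Sesn2, a sensor that restrains mTORC1, was called without a block only against CA +GFP, where the difference was 1.14, beside 0.32 against +GFP (adjusted p = 0.272) and 0.71 against +Cre (adjusted p = 0.0337, and 4.6e-04 with the replicate block). Of these calls against +GFP, 3 were lost with 1 library fewer: Chac1 without any 1 of the 6 libraries, Trib3 without +TMPyP4 replicate 3, and Slc7a11 without +GFP replicate 2 or 3.

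The tRNA synthetases rose together at a smaller size. Aars, the alanyl-tRNA synthetase, was higher by 0.38, 0.52 and 0.60 on the log2 scale against +GFP, CA +GFP and +Cre, Cars (cysteinyl) by 0.56, 0.56 and 0.51, and Wars (tryptophanyl) by 0.68, 0.40 and 0.39. The Wars call was lost against CA +GFP without CA +GFP replicate 2 or 3 or +TMPyP4 replicate 1 or 3, and against +Cre without any 1 library except +TMPyP4 replicate 2. Several genes outside the list moved the same way and were chosen after their values were seen. Slc7a3 (chrX:101079146-101090452), a carrier of cationic amino acids, stood at 57.6, 59.9 and 54.9 CPM in +TMPyP4 and at 20.2, 15.3 and 17.8 CPM in +GFP, and was higher by 1.69, 2.32 and 1.74 in the 3 comparisons. Aldh1l2, a mitochondrial folate enzyme, was higher by 0.96, 1.79 and 1.64. Gpt2, the mitochondrial alanine transaminase, was higher by 0.69, 1.46 and 1.26, and Lonp1, a mitochondrial protease, by 0.78, 0.80 and 0.69. None of these 4 lost a call on leaving out 1 library.

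**Figure D2:**
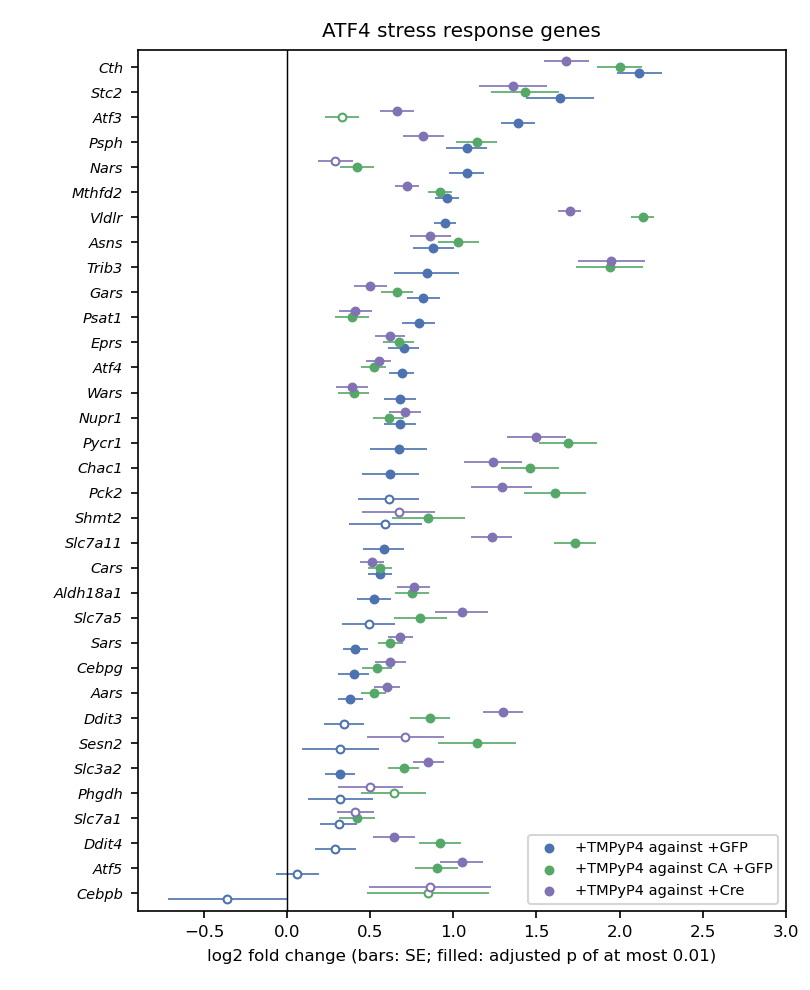
Log2 fold change of each of the 34 tested members of the ATF4 stress response list in +TMPyP4 against +GFP, CA +GFP and +Cre. Bars are the SE and filled points have an adjusted p of at most 0.01, reached by 24, 31 and 28 members, each of them above 0.

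The endoplasmic reticulum part of the stress response did not move with the ATF4 genes. Of 23 genes of the unfolded protein response, 2 were higher and 2 lower than in +GFP, with 4 and 4 against CA +GFP and 4 and 4 against +Cre, and medians of 0.05, -0.14 and -0.14. Hspa5, the major chaperone of this compartment, stood at 1228, 1237 and 1254 CPM against 1286, 1101 and 1130 CPM in +GFP, with overlapping groups (log2 fold change 0.08, adjusted p = 0.326), and was lower by 0.32 than in CA +GFP. Calr, a lectin chaperone, was lower in all 3 comparisons, by 0.32, 0.65 and 0.48 on the log2 scale, and its call against +GFP was lost without any 1 library except +TMPyP4 replicate 2. Atf6, a sensor of unfolded protein, was higher by 0.28, 0.38 and 0.33, and Creld2, a chaperone of the same compartment, was lower than in +GFP and +Cre by 0.29 each and differed from CA +GFP by -0.20 (adjusted p = 0.0307). The Atf6 call against +GFP was lost without +GFP replicate 2 or 3 or +TMPyP4 replicate 1 or 2, and that of Creld2 without +TMPyP4 replicate 3, with its call against +Cre lost without +Cre replicate 1 or any 1 of the +TMPyP4 libraries. Atf6 also lost its call against CA +GFP without CA +GFP replicate 3 and against +Cre without +Cre replicate 3. The 2 lower members of this list against +GFP became 0 without +TMPyP4 replicate 3.

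Txnip fell in all 3 comparisons. Txnip (chr3:96557957-96561857), an arrestin-family protein that restrains glucose uptake and is switched on by the glucose-sensing MondoA and ChREBP factors, stood at 11.6, 12.6 and 12 CPM in +TMPyP4. The +GFP libraries held 78.5, 186 and 154 CPM, the CA +GFP libraries 27.0, 30.9 and 30.5 CPM and the +Cre libraries 27.5, 28.2 and 28.8 CPM. The treated libraries were therefore below each of the other 9, with log2 fold changes of -3.53 ± 0.22, -1.29 ± 0.21 and -1.22 ± 0.21 (adjusted p = 8.0e-09, 2.2e-04 and 3.8e-04). Its paralog Arrdc4, which shares that regulation, was lower by 2.57, 1.05 and 1.14. The Arrdc4 call was lost against CA +GFP without CA +GFP replicate 2 or +TMPyP4 replicate 2 or 3, and against +Cre without +TMPyP4 replicate 2 or 3. Against CA +GFP it was also lost with a replicate block within each line (adjusted p = 0.013). Both genes were picked after their values were seen, Txnip also being among the 10 largest falls against +GFP.

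Some other genes that were lower in all 3 comparisons are given here, named after their values were seen. Dcn, the proteoglycan decorin, stood at 8.43, 7.56 and 7.24 CPM in +TMPyP4, at 12.8, 15.1 and 14.6 CPM in +GFP and at 39.3, 38.9 and 39.7 CPM in +Cre, and its log2 fold change was -0.87, -1.11 and -2.35 in the 3 comparisons. Sox9, the factor that directs cartilage formation, fell from 20.1, 23.2 and 22.7 to 7.54, 6.29 and 6.81 CPM (-1.68 ± 0.16, adjusted p = 3.3e-07) and was lower by 0.75 and 1.11 in the other 2 comparisons. Acan, the aggrecan gene that SOX9 drives in cartilage, was lower by 1.22, 1.20 and 0.76. Serpini1, which encodes neuroserpin, was lower by 1.38, 1.08 and 1.04, and Il1rl1, the receptor of IL-33, by 0.88, 1.39 and 0.82. Insig1, which holds SREBP in the endoplasmic reticulum, was lower by 0.26, 0.28 and 0.31 and was the 1 called gene of 25 in cholesterol synthesis against +GFP and against CA +GFP. Against +Cre 8 of these 25 genes were lower and none higher (median -0.23), and 11 were lower with the replicate block. The Sox9 call against CA +GFP was lost without +TMPyP4 replicate 2, and the Acan call against +Cre without any 1 library except +Cre replicate 2.

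**Figure D3:**
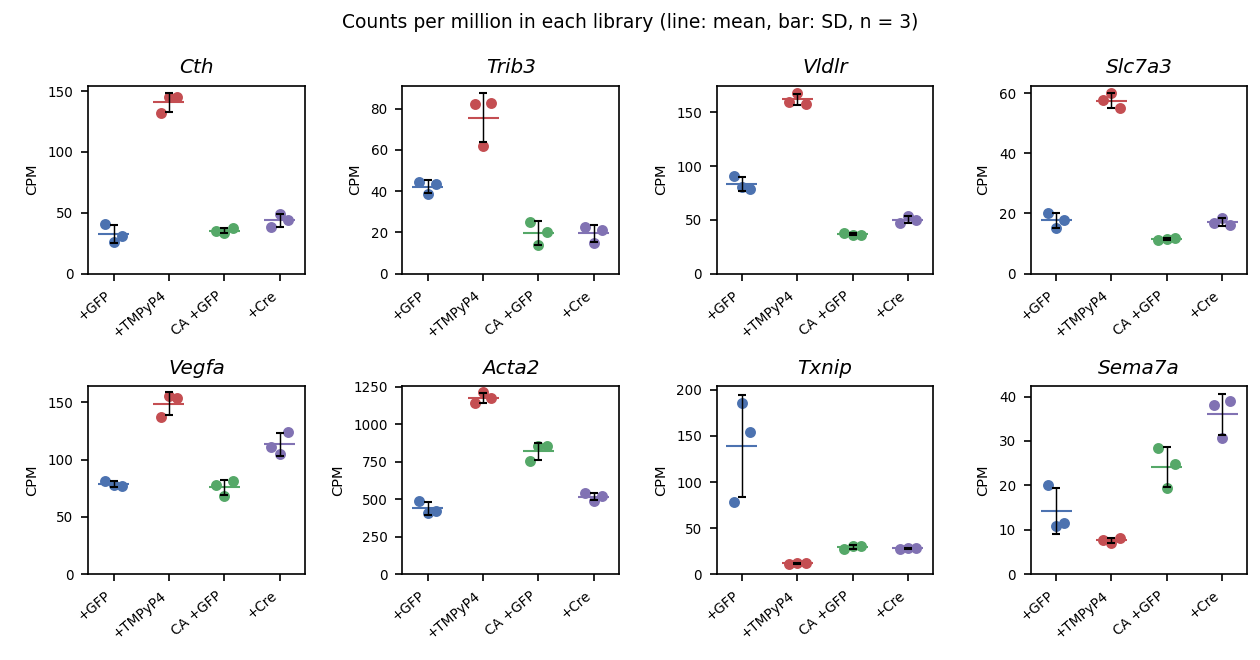
CPM of 8 genes in each library of the +GFP, +TMPyP4, CA +GFP and +Cre groups, with the mean (line) and SD (bar) of 3 libraries and axes that start at 0. Cth, Trib3, Vldlr, Slc7a3, Vegfa and Acta2 are higher in the 3 +TMPyP4 libraries than in the other 9, and Txnip and Sema7a are lower.

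Some contractile genes were higher in all 3 comparisons. Serum response factor (SRF) with its actin-regulated cofactors drives cytoskeletal and smooth muscle genes when actin polymerises. Of 27 list members tested, 12 were higher and 1 lower than in +GFP (median 0.21), 6 higher and none lower than in CA +GFP (median 0.16), and 9 higher and none lower than in +Cre (median 0.20). Acta2, Cnn1, Actg2, Lmod1 and Cald1, 5 of the 27, were higher in all 3. Acta2 (chr19:34240336-34255585), the smooth muscle actin that marks myofibroblasts, stood at 1141, 1211 and 1175 CPM in +TMPyP4 against 489, 406 and 422 CPM in +GFP, 755, 852 and 854 CPM in CA +GFP and 539, 490 and 521 CPM in +Cre. It was higher than in each, by 1.42 ± 0.086, 0.52 ± 0.085 and 1.19 ± 0.085 (adjusted p = 3.0e-09, 1.6e-04 and 1.6e-08). Actg2, the enteric smooth muscle actin, was higher by 1.66, 1.14 and 1.42, Lmod1, an actin nucleator of smooth muscle, by 1.01, 1.26 and 1.13, and Cnn1, the calponin that marks contractile cells, by 1.70, 0.62 and 0.82. The Cnn1 call against CA +GFP was lost without any 1 of the 6 libraries, and those of Cald1, an actin-binding protein, against +GFP and +Cre without any 1 library except +TMPyP4 replicate 1 and against CA +GFP without CA +GFP replicate 1 or 3 or +TMPyP4 replicate 2 or 3.

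Fhl1 and Tagln, also of that list, had larger log2 fold changes against +GFP than against CA +GFP or +Cre. Fhl1, a LIM protein of muscle and stretch signalling, had the largest rise of all genes by the rule for named genes, from 5.36, 4.54 and 4.55 to 36.6, 39.3 and 37.3 CPM (2.97 ± 0.080, adjusted p = 4.0e-14). The untreated CA +GFP libraries held 31.9, 35.8 and 32.4 CPM of it, and the difference from them was 0.18 (adjusted p = 0.0777), beside 0.89 against +Cre (adjusted p = 8.3e-08). Tagln, which encodes transgelin, rose by 1.20 against +GFP and differed by 0.02 and 0.17 from CA +GFP and +Cre. Csrp2, another LIM protein, was the 1 lower member (-0.44). Of 21 YAP and TAZ targets, 8 were higher and 3 lower than in +GFP, 3 higher and 1 lower than in CA +GFP, and 7 higher and none lower than in +Cre, with medians of 0.15, 0.11 and 0.23. The 8 became 5 without +GFP replicate 2 or +TMPyP4 replicate 2, and the 3 against CA +GFP became 7 with the replicate block. Ankrd1, a nuclear target of this pathway, and Ctgf, a matricellular growth factor, rose by 2.31 and 1.34 against +GFP and differed from CA +GFP by -0.45 and -0.11 without passing the test.

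Edn1 and Vegfa, which encode secreted factors that act on blood vessels, were higher than in each of the other groups. Edn1 (chr13:42301476-42307990), the precursor of the vasoconstrictor endothelin, stood at 35.6, 40.3 and 34.5 CPM in +TMPyP4, at 6.70, 4.91 and 5.31 CPM in +GFP, at 19.7, 20.5 and 27.5 CPM in CA +GFP and at 9.25, 13.3 and 12.4 CPM in +Cre. It was higher by 2.71 ± 0.18, 0.71 ± 0.16 and 1.66 ± 0.17 (adjusted p = 5.0e-09, 0.0033 and 1.2e-06), with the CA +GFP call lost without CA +GFP replicate 1 or 2 or +TMPyP4 replicate 2. Vegfa (chr17:46016993-46032377), the endothelial growth factor whose promoter is printed above with its G4 motif, stood at 137, 156 and 154 CPM against 81.6, 78.0 and 76.9 CPM in +GFP, and the groups did not overlap. It was higher by 0.92 ± 0.087 and 0.97 ± 0.087 than in +GFP and CA +GFP (adjusted p = 4.1e-07 and 2.3e-07) and by 0.39 ± 0.086 than in +Cre (adjusted p = 0.00271), a call lost without +Cre replicate 1 or 2 or +TMPyP4 replicate 2 or 3. Ndrg1, a gene that hypoxia and stress induce, was higher by 0.69, 1.12 and 1.56. The glycolysis and hypoxia list as a whole did not follow: of 28 genes 5 were higher and 2 lower than in +GFP, 4 and 5 than in CA +GFP and 4 and 6 than in +Cre, with medians of 0.09, -0.14 and -0.19. The 6 became 3 without +Cre replicate 3 or +TMPyP4 replicate 2 or 3, and Ldha, the lactate dehydrogenase subunit, was lower by 0.53 and 0.52 in the latter 2.

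The promoter G4 oncogenes, genes whose G4s are best known from studies of DNA in vitro, were called in both directions against +GFP. Of 15 tested, 3 were higher, Vegfa and Rb1 among them, and 3 lower (Kit, Myb and Pdgfrb), with a median of 0.24. These counts are 20% each way, beside 16.6% higher and 13.4% lower of all genes tested. Against CA +GFP 1 was higher and 1 lower (median 0.04), and against +Cre 4 were higher and none lower (median 0.03). Without +GFP replicate 2 or 3 only 1 was higher, and the call of Rb1, the retinoblastoma tumour suppressor, was lost without any 1 library except +TMPyP4 replicate 1. Myc, the transcription factor most studied with TMPyP4, stood at 159, 131 and 144 CPM in +TMPyP4 and at 114, 77.5 and 84.5 CPM in +GFP. The groups did not overlap, which held for 57.8% of all genes tested. The log2 fold change of 0.66 ± 0.20 missed the threshold (adjusted p = 0.0124), and it was -0.16 against CA +GFP and -0.15 against +Cre, with overlapping groups. Bcl2, which blocks apoptosis, stood at 28.8, 29.0 and 28.2 CPM against 33.0, 25.1 and 25.4 CPM. Tert, the reverse transcriptase of telomerase, differed by 0.01 (adjusted p = 0.988).

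The genes of this list that fell against +GFP were also low in untreated groups. Kit, the receptor of stem cell factor, was at 0.0317, 0.0964 and 0.0478 CPM in +TMPyP4 and at 0.579, 3.84 and 2.80 CPM in +GFP (adjusted p = 8.0e-05), but also at 0 to 0.137 CPM in CA +GFP and at 0 to 0.0273 CPM in +Cre. Pdgfrb, a growth factor receptor of mesenchymal cells, fell from 269, 320 and 295 to 190, 159 and 167 CPM (-0.78 ± 0.12, adjusted p = 6.3e-05), and was higher than in +Cre by 0.93. Myb, a factor of blood progenitors, fell by 0.84 and differed from CA +GFP by -0.14.

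Of 17 tested genes listed as G4 helicases, not all of them shown to unwind G4s, 2 were higher and 1 lower than in +GFP. These counts are 11.8% and 5.88%, beside 16.6% and 13.4% of all genes tested. None was higher and 2 were lower than in CA +GFP, with 2 and 2 against +Cre and medians of 0.06, -0.03 and 0.07. Ercc3, the XPB subunit of TFIIH, was higher by 0.30 and Ddx11, a cohesion helicase, by 0.24, while Helb, a replication helicase, was lower by 0.44. Against CA +GFP and +Cre these 3 differed by -0.15 (adjusted p = 0.0163) and -0.17 (adjusted p = 0.00641, lost without any 1 of the 6 libraries), by -0.03 and -0.10, and by 0.03 and 0.11. The Ddx11 call was lost without any 1 library except +GFP replicate 1. Dhx36, the main resolvase of RNA G4s, stood at 173, 185 and 180 CPM against 167, 156 and 152 CPM (log2 fold change 0.18, adjusted p = 0.0697). Blm, Wrn, Brip1 and Pif1, the RecQ, FANCJ and PIF1 helicases that act on DNA G4s, differed from +GFP by 0.11, -0.03, -0.08 and 0.08, none past the threshold. Against +Cre they differed by 0.33, 0.16, 0.25 and 0.21, and Blm alone was called (adjusted p = 0.00181, lost without +Cre replicate 1 or 3 or +TMPyP4 replicate 2), with Brip1 at an adjusted p of 0.0172 and of 0.00327 with the replicate block. With GC content corrected in the fit against +GFP, 6 of the 17 were higher and 5 lower, beside 2288 higher and 2388 lower of all 13719 genes.

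Telomere proteins and R-loop factors were called in both directions. Of 20 telomere proteins, 5 were higher and 1 lower than in +GFP, 3 and 4 than in CA +GFP, and 3 and 3 than in +Cre, with medians of 0.07, -0.09 and -0.10. The counts against +GFP are 25% higher and 5% lower, beside 16.6% and 13.4% of all genes tested. Without +GFP replicate 2 the 5 became 1 and without replicate 3 they became 2, and without +TMPyP4 replicate 1 the 4 lower against CA +GFP became 1. The higher ones included the H/ACA proteins of telomerase RNA, Dkc1 (0.48), Nhp2 (0.57) and the assembly factor Naf1 (0.83), and Dkc1 was lower by 0.57 than in both CA +GFP and +Cre. Each of these 3 calls against +GFP was lost without +GFP replicate 2 or 3. That of Nhp2 was also lost without +TMPyP4 replicate 1 or 3, and that of Naf1 without +TMPyP4 replicate 2. Acd, the shelterin protein TPP1, was the lower one (-0.32), in a call lost without any 1 library except +GFP replicate 1. Terf1 and Terf2, which bind the telomeric duplex, differed by 0.26 (adjusted p = 0.0192) and -0.07 (adjusted p = 0.556). Of 25 R-loop factors, 8 were higher and 1 lower than in +GFP, none and 4 than in CA +GFP, and 1 and 3 than in +Cre, with medians of 0.17, -0.16 and -0.09, and the 8 became 4 without +GFP replicate 2 or 3. Ddx21, a nucleolar helicase that unwinds R-loops, was higher by 0.73 than in +GFP and lower by 0.60 and 0.59 than in the other 2 groups. Thoc3, a subunit of the export complex that keeps nascent RNA off DNA, was lower in all 3 comparisons, from 88.3, 87.1 and 91.2 to 77.4, 76.2 and 73.9 CPM (-0.23, -0.30 and -0.32).

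Ribosome production and protein folding genes were high against +GFP and low or level against the others. Of 30 ribosome biogenesis genes, 26 were higher and none lower than in +GFP (median 0.58), none higher and 14 lower than in CA +GFP (median -0.43), and none higher and 14 lower than in +Cre (median -0.39), a count that fell to between 5 and 7 without +Cre replicate 2 or 3 or +TMPyP4 replicate 1 or 3 and to 9 without +TMPyP4 replicate 2. Npm1, the major nucleolar chaperone, stood at 1412, 1668 and 1681 CPM in +TMPyP4, at 942, 740 and 786 CPM in +GFP and at 1983, 2490 and 2200 CPM in CA +GFP. The treated libraries thus lay between both controls, by 0.95 ± 0.12 above +GFP (adjusted p = 6.7e-06) and by 0.49 below CA +GFP, where the call was lost without CA +GFP replicate 2 or 3 or +TMPyP4 replicate 1. Ncl, the nucleolar protein that binds G4 DNA and RNA, was higher by 0.94 than in +GFP and lower by 0.48 than in +Cre, the latter lost with the replicate block (adjusted p = 0.0106) and without +Cre replicate 2 or 3 or +TMPyP4 replicate 1 or 3. Of 82 cytosolic ribosomal protein genes, 49 were higher and none lower than in +GFP (median 0.51), with none higher and 1 lower in each of the other comparisons (medians -0.07 and -0.03). Rpl30, a protein of the large subunit, rose from 45.0, 31.3 and 34.9 to 83.0, 127 and 140 CPM (1.66 ± 0.29, adjusted p = 2.3e-04), with CA +GFP at 103, 160 and 162 CPM. Ribosomal protein genes have many processed pseudogenes, so their counts depend on how reads were shared among copies.

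Chaperones and the proteasome had the same form. Of 22 heat shock protein genes, 14 were higher and 1 lower than in +GFP, 1 and 5 than in CA +GFP, and 1 and 4 than in +Cre, with medians of 0.43, -0.20 and -0.18. The 5 lower against CA +GFP became 1 or 2 without any 1 library except CA +GFP replicate 1. Hspd1, the mitochondrial chaperonin, rose from 586, 368 and 397 to 884, 1124 and 1090 CPM (1.20 ± 0.17, adjusted p = 2.3e-05), and CA +GFP held 1065, 1387 and 1241 CPM. Hspa8, the constitutive cytosolic chaperone, rose by 0.54, while the heat-induced Hspa1b stood at 68.3, 29.6 and 32.5 CPM against 74.5, 54.1 and 58.5 CPM with overlapping groups (adjusted p = 0.470). Of 37 proteasome genes, 15 were higher and 2 lower than in +GFP (median 0.24), and none higher and 14 and 13 lower than in CA +GFP and +Cre (median -0.27 in each). The 15 became 3 without +GFP replicate 2 and 8 without +GFP replicate 3, the 14 became 7 to 9 without any 1 library except CA +GFP replicate 1 and 22 with a replicate block within each line, and the 13 became 8 or 7 without +TMPyP4 replicate 1 or 3. Psmd14, the deubiquitinase of the lid, was higher by 0.56 than in +GFP and lower by 0.36 than in each of the others. Of 77 mitochondrial ribosomal protein genes, 23 were higher and none lower than in +GFP (median 0.26), with 1 and 7 against CA +GFP and 1 and 10 against +Cre, and the 23 became 9 without +GFP replicate 2 and 14 without +GFP replicate 3. Under the replicate block the 7 became 11 and the 10 became 18, and the 10 became 6 without +TMPyP4 replicate 1 or 2. Of 30 hnRNP and SR proteins, which bind nascent RNA and choose splice sites, 12 were higher and none lower than in +GFP, none and 4 than in CA +GFP, and none and 2 than in +Cre. The 12 became 0 without +GFP replicate 2 or 3, 3 without +TMPyP4 replicate 2 and 4 without +TMPyP4 replicate 3, and the 4 lower than in CA +GFP became 9 with the replicate block and 1 without +TMPyP4 replicate 1 or 3.

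**Figure D4:**
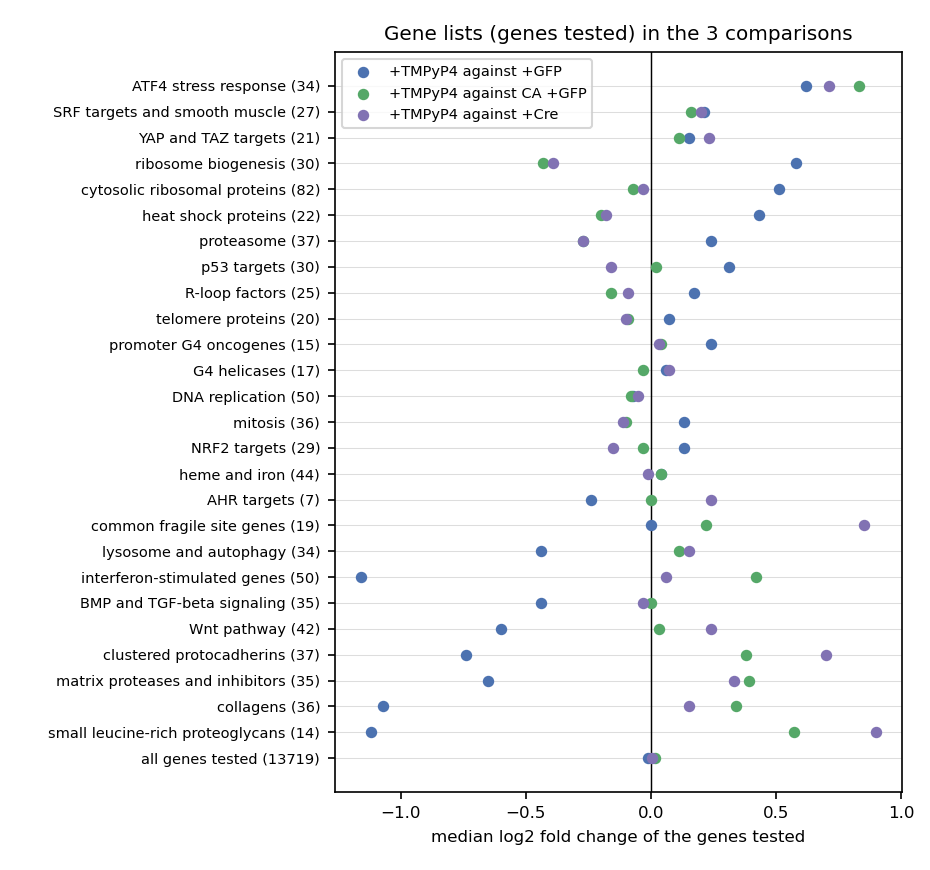
Median log2 fold change of the tested members of 26 gene lists, and of all genes tested, in +TMPyP4 against +GFP, CA +GFP and +Cre, 1 point per comparison. The ATF4, SRF, YAP and TAZ, and promoter G4 oncogene lists are above 0 in all 3. The ribosome biogenesis, heat shock, proteasome, interferon and matrix lists change side between +GFP and CA +GFP.

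Interferon-stimulated genes showed the opposite order. These genes encode antiviral effectors and antigen presentation proteins that cells switch on in answer to interferon. Of 50 tested, 1 was higher and 34 were lower than in +GFP (median -1.16), 20 were higher and none lower than in CA +GFP (median 0.42), and 5 were higher and 4 lower than in +Cre (median 0.06). The 20 became 12 without CA +GFP replicate 2 or 3 or +TMPyP4 replicate 1, and the 5 became 2 without +Cre replicate 3. Psmb8, the immunoproteasome subunit LMP7, stood at 1.14, 0.699 and 0.812 CPM in +TMPyP4 and at 4.65, 8.28 and 9.07 CPM in +GFP (-3.07 ± 0.26, adjusted p = 1.1e-07). It stood at 0.461 to 0.754 CPM in CA +GFP, which overlapped the treated libraries. Isg15, the ubiquitin-like modifier, fell by 1.13 and Ifit1, a sensor of uncapped RNA, by 0.96. Both were higher by 0.63 than in CA +GFP (adjusted p = 0.0084 and 0.00314), calls lost for Isg15 without any 1 library except CA +GFP replicate 3 and for Ifit1 without CA +GFP replicate 2 or 3 or +TMPyP4 replicate 1 or 2. Against +Cre they differed by -0.59 (adjusted p = 0.0116, and 0.00132 with the replicate block) and -0.15. Irgm1, an immunity GTPase, was the 1 higher member (0.44), a call lost without any 1 library except +GFP replicate 1. Of 28 chemokine and NF-kB cytokine genes, 2 were higher and 9 lower than in +GFP, 6 and 4 than in CA +GFP, and none and 8 than in +Cre, and the 6 became 3 without CA +GFP replicate 1 or 2 or +TMPyP4 replicate 2. Ccl5, a T cell chemokine, was lower by 1.65 than in +GFP and by 1.25 than in +Cre but higher by 1.33 than in CA +GFP. Ptgs2, the inducible cyclooxygenase, was among the 10 largest rises against +GFP (2.36), where +GFP replicate 1 held 116 CPM and replicates 2 and 3 held 37.2 and 41.6 CPM, and it differed by -1.0 from CA +GFP (adjusted p = 0.0328).

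More extracellular matrix genes were lower than higher against +GFP, and more were higher than lower against the other groups. Over all genes tested, 16.6% were higher and 13.4% lower than in +GFP. These shares were 9.94% and 7.07% against CA +GFP and 9.09% and 6.13% against +Cre. Among all genes tested, too, more were thus higher than lower against CA +GFP and +Cre. Of 36 collagens tested, 1 was higher and 16 were lower than in +GFP (median -1.07), with 6 higher and 2 lower in each of the other comparisons (medians 0.34 and 0.15) and 10 higher than in +Cre and 11 than in CA +GFP under a replicate block within each line. Col3a1, a fibrillar collagen of soft tissue, fell from 1268, 1271 and 1222 to 601, 485 and 552 CPM (-1.20 ± 0.15, adjusted p = 5.1e-06), while CA +GFP held 530, 352 and 452 CPM and +Cre 270, 201 and 266 CPM. Col1a1, the main collagen of bone and skin, varied widely among the treated libraries, at 2888, 1287 and 1794 CPM against 4975, 4642 and 4654 CPM, and its difference of -1.26 ± 0.49 missed the threshold (adjusted p = 0.0485). Fmod, the proteoglycan fibromodulin, was among the 10 largest falls, from 46.7, 97.6 and 88.0 to 4.50, 4.38 and 4.30 CPM (-4.14 ± 0.22, adjusted p = 8.0e-10), yet stood higher than in CA +GFP (1.10 to 1.46 CPM) and +Cre (0.419 to 0.596 CPM). Of 14 small leucine-rich proteoglycans, 1 was higher and 8 lower than in +GFP (median -1.12), and 7 were higher and 1 lower than in CA +GFP and in +Cre (medians 0.57 and 0.90). Of 47 matrix glycoproteins, 6 were higher and 18 lower than in +GFP (median -0.50), 10 and 7 than in CA +GFP (median 0.18) and 9 and 5 than in +Cre (median 0.22). The 10 became 3 without CA +GFP replicate 3, 5 without CA +GFP replicate 2 and 6 without +TMPyP4 replicate 1 or 3. Of 35 matrix proteases and inhibitors, 4 were higher and 12 lower than in +GFP (median -0.65), 12 and 5 than in CA +GFP (median 0.39) and 10 and 4 than in +Cre (median 0.33). The 4 became 2 without +GFP replicate 3, and the 5 became 2 without +TMPyP4 replicate 1. Mmp9, the gelatinase, fell from 106, 153 and 145 to 27.7, 19.8 and 20.8 CPM and was higher by 1.84 than in CA +GFP. Adamtsl3, a matrix protein of the ADAMTS-like family, and Timp3, a matrix-bound inhibitor of metalloproteases, were higher in all 3 comparisons, by 0.75, 1.10 and 1.00 and by 0.38, 1.44 and 1.75. The Timp3 call against +GFP was lost without +GFP replicate 3. Of 34 lysosome and autophagy genes, none was higher and 17 were lower than in +GFP (median -0.44), with 4 and 2 against CA +GFP and 3 and 1 against +Cre, where the replicate block gave 8 and 6 higher.

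Developmental signalling genes were lower than in +GFP. Of 35 genes of BMP and TGF-beta signalling, 5 were higher and 13 lower than in +GFP (median -0.44), 3 and 7 than in CA +GFP (median 0) and 5 and none than in +Cre (median -0.03). With the replicate block 6 were higher than in CA +GFP and 8 than in +Cre, and the 7 lower than in CA +GFP became 4 without CA +GFP replicate 2 or any 1 of the +TMPyP4 libraries. Id1 and Id3, direct targets of BMP receptors, fell by 1.79 and 1.92, while the secreted BMP antagonists Grem1 and Nog rose by 2.18 and 1.9. Id1 and Id3 differed from CA +GFP by 0.16 and 1.36 and from +Cre by -0.20 and 1.05, none past the threshold. Nog was lower by 0.99 than in CA +GFP (adjusted p = 0.00965), a call lost without any 1 of the 6 libraries, and differed from +Cre by 0.73 (adjusted p = 0.074). Grem1 stood at 25.1, 24.6 and 22.6 CPM in +TMPyP4, at 5.97, 5.10 and 4.85 CPM in +GFP and at 51.9, 43.9 and 45.7 CPM in CA +GFP, so it was lower by 0.97 than in the latter. Of 42 Wnt pathway genes, 4 were higher and 17 lower than in +GFP (median -0.60), 7 and 7 than in CA +GFP (median 0.03) and 9 and 5 than in +Cre (median 0.24), and the 17 became 8 without +TMPyP4 replicate 2. Fzd1, a Wnt receptor, fell from 74.4, 144 and 130 to 42.7, 37.3 and 38.4 CPM, but was higher by 1.67 and 2.65 than in CA +GFP and +Cre. Igf1, the insulin-like growth factor, fell by 1.19 against +GFP and was higher by 2.37 and 2.26 than in CA +GFP and +Cre. Of 37 clustered protocadherins, adhesion proteins of neural identity, none was higher and 20 were lower than in +GFP (median -0.74), 9 and none than in CA +GFP (median 0.38) and 11 and 1 than in +Cre (median 0.70), where the 11 became 6 or 7 without any 1 library except +TMPyP4 replicate 3.

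Genes of the p53 response and of the cell cycle were examined next. Of 30 p53 targets, 13 were higher and 2 lower than in +GFP (median 0.31), 4 and 3 than in CA +GFP (median 0.02) and 1 and 6 than in +Cre (median -0.16), with 8 higher than in CA +GFP under the replicate block. Cdkn1a, the CDK inhibitor p21, stood at 92.6, 92.7 and 89.9 CPM in +TMPyP4, at 51.0, 49.1 and 53.2 CPM in +GFP, at 63.3, 64.9 and 64.0 CPM in CA +GFP and at 123, 113 and 121 CPM in +Cre. It was therefore higher by 0.84 ± 0.055 and 0.52 ± 0.055 than in both untreated Ad-GFP groups (adjusted p = 5.6e-09 and 1.6e-06) and lower by 0.38 ± 0.055 than in the Rtel1-deleted cells (adjusted p = 6.1e-05). Mdm2, the ubiquitin ligase of p53, was higher by 0.56 than in +GFP, differed from CA +GFP by -0.16 (adjusted p = 0.152) and was lower by 0.64 than in +Cre. Eda2r, a death-domain receptor that p53 induces, rose from 5.32, 3.76 and 3.61 to 16.0, 16.4 and 17.8 CPM, with 14.2 to 18.5 CPM in CA +GFP and 25.9 to 27.4 CPM in +Cre.

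Of 50 DNA replication genes, 2 were higher and 6 lower than in +GFP (median -0.07), with none and 2 against CA +GFP and 2 and 2 against +Cre. The counts against +GFP are 4% higher and 12% lower, beside 16.6% and 13.4% of all genes tested. The 6 became 3 without +GFP replicate 3, +TMPyP4 replicate 2 or +TMPyP4 replicate 3, and the 2 became 0 without +GFP replicate 2. The 2 lower than in CA +GFP became 5 with the replicate block and 6 without CA +GFP replicate 1. Mcm5, a subunit of the replicative helicase, was lower by 0.44 and Lig1, the ligase of lagging-strand DNA, by 0.40. Mcm5 differed by -0.27 from CA +GFP (adjusted p = 0.0184, and 0.00302 with the replicate block) and by -0.08 from +Cre. Lig1 differed by 0.08 from CA +GFP and was higher by 0.24 than in +Cre, a call lost without +Cre replicate 1 or 2. Of 36 mitosis genes, 8 were higher and 1 lower than in +GFP (median 0.13), none and 2 than in CA +GFP and none and 5 than in +Cre. The 8 and 1 are 22.2% and 2.78%, beside 16.6% and 13.4% of all genes tested. The 8 became 0 without +GFP replicate 2 or 3 and 2 without +TMPyP4 replicate 2 or 3. The 2 lower than in CA +GFP became 6 with the replicate block and 5 without CA +GFP replicate 1, and the 5 lower than in +Cre became 2 without any 1 library except +Cre replicate 1. Mki67, the proliferation marker, was the lower one, at 370, 362 and 303 CPM against 566, 555 and 464 CPM (-0.62 ± 0.13, adjusted p = 8.0e-04), with 370, 367 and 314 CPM in +Cre. Of 33 clustered histone genes tested of 69 in the table, 1 was higher and none lower than in +GFP, and none higher and 2 lower in each of the other comparisons. Their transcripts mostly lack polyA tails, which limits what a polyA library can show. Of 39 genes of homologous recombination and its checkpoint, 7 were higher (17.9%, beside 16.6% of all genes tested) and 1 lower than in +GFP. Against CA +GFP 2 were higher and none lower. None was called in either direction against +Cre, where edgeR gave 8 members at an unadjusted p under 0.05 and DESeq2 called 0. With the replicate block 5 were higher and 3 lower than in CA +GFP, and 3 were higher than in +Cre. The 7 became 1 without +GFP replicate 2 or 3 and 3 without +TMPyP4 replicate 2 or 3. Atr, the replication checkpoint kinase, was higher by 0.60 than in +GFP and differed by 0.13 and 0.12 from the others.

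TMPyP4 is itself a porphyrin, so genes of heme, iron and xenobiotic handling were examined. Of 44 heme and iron genes, 6 were higher (13.6%) and 7 lower (15.9%) than in +GFP (median 0.04), beside 16.6% and 13.4% of all genes tested. Against CA +GFP 5 were higher and 3 lower (median 0.04), and against +Cre 6 and 5 (median -0.01). The 6 higher than in +GFP became 3 without +GFP replicate 2 or 3. The 3 lower than in CA +GFP became 6 without CA +GFP replicate 1. Cpox, the coproporphyrinogen oxidase of heme synthesis, rose from 40.9, 30.2 and 32.3 to 71.3, 80.5 and 83.5 CPM (1.19 ± 0.12, adjusted p = 7.4e-07) and was higher by 0.65 and 0.84 in the other comparisons. Alas1, the rate-limiting enzyme of the pathway, stood at 25.1, 24.1 and 25.5 CPM against 21.1, 21.8 and 23.6 CPM (log2 fold change 0.17, adjusted p = 0.247). Hmox1, the heme oxygenase that both heme and oxidative stress induce, stood at 58.1, 56.6 and 60.9 CPM against 48.6, 55.5 and 56.6 CPM (0.13, adjusted p = 0.171). Slc48a1, a heme transporter, was higher by 0.27, 0.22 and 0.25, with calls lost against +GFP without +GFP replicate 2 or 3, against CA +GFP without any 1 library, and against +Cre without any +Cre library or +TMPyP4 replicate 3. Tfrc, the transferrin receptor, was higher by 0.47 than in +GFP, a call lost without +GFP replicate 2 or 3 or +TMPyP4 replicate 2 or 3, and lower by 1.05 and 0.96 than in the other groups.

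Of 29 NRF2 targets, 6 were higher and 2 lower than in +GFP, 3 and 4 than in CA +GFP and 2 and 3 than in +Cre, with medians of 0.13, -0.03 and -0.15. The counts against +GFP are 20.7% higher and 6.9% lower, beside 16.6% and 13.4% of all genes tested. The 6 became 2 without +GFP replicate 2 and 3 without replicate 3, and the 3 lower than in +Cre became 6 with the replicate block. Nqo1, the quinone reductase that reads out NRF2, stood at 14.4, 16.5 and 17.4 CPM against 13.8, 16.2 and 16.4 CPM (adjusted p = 0.749). Of 7 aryl hydrocarbon receptor (AHR) targets tested, none was higher and 3 were lower than in +GFP, while 3 and 4 were higher and none lower than in CA +GFP and +Cre. Cyp1b1, a cytochrome P450 of this pathway, fell from 160, 198 and 181 to 111, 114 and 116 CPM and was higher by 0.78 and 1.15 than in CA +GFP and +Cre. Cyp1a1, its most inducible target, was at or below 0.0239 CPM in all 6 libraries.

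Most of the largest changes against +GFP were not called in the same direction against both other groups. Besides Fhl1, Edn1, Ptgs2, Ankrd1, Grem1 and Cth, the 10 largest rises were Siglecg, a sialic acid receptor (2.81), Gjb2, the connexin 26 gene (2.79), Mfap3l (2.51) and Serpinb9b, a serine protease inhibitor (2.17). Gjb2 stood at 75.2, 89.5 and 84.4 CPM in +TMPyP4, at 21.4, 6.54 and 8.17 CPM in +GFP and at 86.2, 112 and 91.8 CPM in CA +GFP. The largest fall was that of Enpep (chr3:129269177-129332749), the aminopeptidase that cleaves angiotensin II, from 10.0, 47.7 and 35.0 to 1.24, 0.699 and 0.860 CPM (-5.07 ± 0.49, adjusted p = 8.1e-07), with at most 0.437 CPM in CA +GFP and +Cre. The angiotensin receptor Agtr2 followed, from 6.63, 13.9 and 12.4 to 0.761, 0.699 and 0.693 CPM (-3.94 ± 0.25), with 0.597 to 0.868 CPM in CA +GFP. The others were Hmcn1, a basement membrane hemicentin (-3.83), Tspan11 (-3.75), Islr (-3.46), Rnf150 (-3.31), the complement gene C3 (-3.25) and Serpina3g (-3.18), besides Fmod and Txnip. Of these 20 genes, Cth, Edn1 and Txnip were called in the same direction in all 3 comparisons.

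The treated cells were also set directly against the +Cre cells, among genes called against both +GFP and +Cre. Genes were kept if their mean over these 9 libraries reached 5 CPM and their +TMPyP4 and +Cre libraries did not overlap. Among them the treated cells differed most in Cdsn, Ndnf, Fzd1, Lrrc17 and Fmod upward and in Dcn, Sema7a, Rgs16, Gm12603 and Tnfrsf9 downward. Cdsn, the adhesion protein corneodesmosin, stood at 42.7, 36.9 and 44.4 CPM in +TMPyP4, at 18.1, 15.8 and 17.0 CPM in +GFP and at 3.87, 2.43 and 4.18 CPM in +Cre, higher by 1.29 and 3.57. Ndnf, a secreted neurotrophic factor, was lower by 1.84 than in +GFP and higher by 2.82 than in +Cre, and Lrrc17, a secreted leucine-rich repeat protein, lower by 0.86 and higher by 2.64. Sema7a, a membrane-anchored semaphorin, stood at 7.67, 6.94 and 8.17 CPM in +TMPyP4, at 20.1, 10.9 and 11.6 CPM in +GFP and at 38.2, 30.7 and 39.1 CPM in +Cre. Its log2 fold changes were -0.90 and -2.24, and its call against +GFP was lost without +GFP replicate 1 or any 1 of the +TMPyP4 libraries. Rgs16, a GTPase activator of G protein signalling, was higher by 1.08 than in +GFP and lower by 1.76 than in +Cre. The lncRNA gene Gm12603 was higher by 1.93 and lower by 1.73 in those comparisons, and Tnfrsf9, a costimulatory receptor, was lower by 1.48 and 1.42.

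Gene span separated +TMPyP4 from +Cre more than from the other groups. Of 363 tested genes whose transcribed span exceeds 300 kb, 118 (32.5%) were higher and 11 (3.03%) lower than in +Cre, with a median log2 fold change of 0.317. The same genes had a median of -0.108 against +GFP, with 47 higher and 80 lower, and of 0.110 against CA +GFP, with 72 higher and 39 lower. Of the 1455 genes of 100 to 300 kb, 274 were higher and 77 lower than in +Cre (median 0.115). Common fragile site genes are very long genes that break under replication stress. The list can share genes with these span classes, so it is not a separate observation. Of 19 tested, 2 were higher and 4 lower than in +GFP (median 0), 4 and 2 than in CA +GFP (median 0.22) and 8 and none than in +Cre (median 0.85). The 2 became 0 without +GFP replicate 2 or 3, and the 4 higher than in CA +GFP became 1 without CA +GFP replicate 1 or 3. Dlg2, a synaptic scaffold gene, stood at 3.71, 4.31 and 3.32 CPM in +TMPyP4, at 6.23, 6.82 and 6.91 CPM in +GFP and at 0.746, 0.844 and 0.737 CPM in +Cre, lower by 0.82 and higher by 2.28. Prkg1, the cGMP-dependent kinase, was lower by 0.58 than in +GFP and higher by 2.12 than in +Cre, and Wwox, a gene of the FRA16D fragile site, differed by 0.36 (adjusted p = 0.0219) and rose by 1.10. The Prkg1 call against +GFP was lost without +GFP replicate 2 or +TMPyP4 replicate 3.

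Transcript GC content moved with the comparison with +GFP. Over 5 equal classes of genes from the lowest GC content to the highest, the median log2 fold change ran 0.173, 0.104, 0.002, -0.101 and -0.306 against +GFP. It ran -0.037, -0.028, -0.011, 0.054 and 0.142 against CA +GFP, and -0.033, -0.015, -0.006, 0.034 and 0.067 against +Cre. In the highest class the 3 +TMPyP4 libraries themselves differed, at -0.116, -0.478 and -0.254 against +GFP and at 0.344, -0.030 and 0.192 against CA +GFP. The part of GC content in the gene results was not tested beyond the fits with a GC correction, in which 28 ATF4 members were called higher and none lower against +GFP. Some lists moved more in these fits. Of the 39 homologous recombination genes 3 were then higher and 5 lower against +GFP, and 10 higher and 2 lower against CA +GFP. Of the 50 DNA replication genes 2 were higher and 12 lower against +GFP.

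**Figure D5:**
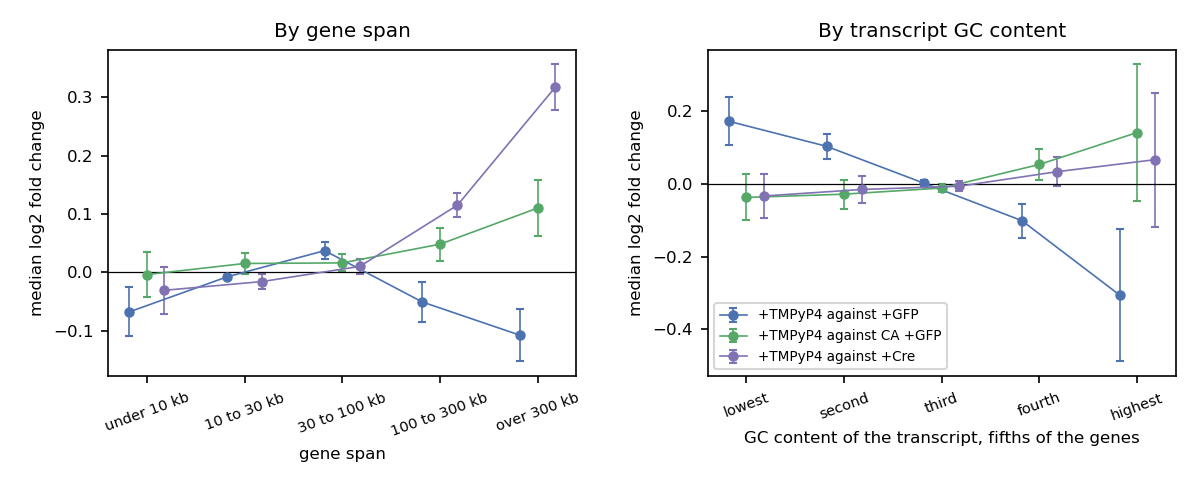
Median log2 fold change of genes tested, by class of transcribed span in kb (left) and by class of transcript GC content (right, 5 equal classes), in +TMPyP4 against +GFP, CA +GFP and +Cre, with bars for the SD of that median over the 3 +TMPyP4 libraries taken 1 at a time. Genes over 300 kb lie at 0.317 against +Cre and at -0.108 against +GFP, and the class with the highest GC content at -0.306 against +GFP and at 0.142 against CA +GFP.

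Fibroblast identity was checked in all 6 libraries. The 15 fibroblast markers summed to 6968 to 7988 TPM (transcripts per 1000000 transcripts) in +TMPyP4 and to 10231 to 11248 TPM in +GFP, and 9 of the 15 were lower and none higher in +TMPyP4. They summed to 8236 to 8984 TPM in CA +GFP, with 1 higher and 3 lower in +TMPyP4. In +Cre they summed to 7573 to 8034 TPM, with 3 higher and 3 lower in +TMPyP4. Vim, the mesenchymal intermediate filament, stood at 1771, 1484 and 1559 CPM against 1490, 1290 and 1367 CPM, while Thy1 and Lum, often used to mark fibroblasts, were at or below 0.190 CPM in all 6. The cartilage and bone markers summed to 6.57 to 9.71 TPM against 35.3 to 52.0 TPM in +GFP, with 3 of the 4 tested lower. In CA +GFP and +Cre they summed to 3.61 to 5.5 and to 3.12 to 5.57 TPM. The endothelial markers summed to 0.470 to 0.810 TPM against 2.26 to 4.59 TPM in +GFP, with 1 of 5 lower. They summed to 0.42 to 0.52 and to 0.41 to 0.63 TPM in CA +GFP and +Cre, so +GFP held the highest sums of both. Epithelial markers summed to at most 5.85 TPM, leukocyte and macrophage markers to at most 10.8 TPM, skeletal muscle markers to at most 0.5 TPM, adipocyte markers to at most 10.9 TPM and neuronal markers to at most 39.1 TPM. The defining genes Myod1, Rbfox3 and Adgre1 were at 0 in all 6 libraries and Ptprc and Adipoq at or below 0.0241 CPM. Against +GFP more of the matrix genes above and of the cartilage and bone markers were lower than higher. These lists share members, Col2a1 and Acan among them, and the fibroblast markers share Dcn with the proteoglycans. They are therefore not separate observations. The part of the cartilage and bone markers in the matrix results was not tested. In bulk RNA, fewer cells of a type and less RNA per cell cannot be told apart.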

How the data were processed

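PolyA RNA of MEFs was sequenced in 21 libraries, of which the 6 Rtel1 F/F +GFP libraries with and without TMPyP4 are described. Per the labels and the study's methods, the authors trimmed reads with cutadapt 1.9.1, aligned them to mm10 with STAR 2.5.2a and quantified genes with RSEM 1.3.0, which splits reads shared by several genes. The submitters' processing notes also name DESeq2 1.28.0. The authors deposited expected counts per gene as whole numbers, used here for all tests, and TPM values, used only for the summed marker levels. Libraries held 32069888 to 51938593 counts, and genes with few counts are measured least precisely.

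The expected counts were tested with edgeR 4.0.16 (R 4.3.3): genes passing filterByExpr, TMM normalisation and the robust quasi-likelihood test (glmQLFit, glmQLFTest) in 1 fit over all 7 groups, which share 1 estimate of the spread, two-sided, with Benjamini-Hochberg adjustment over the 13719 genes tested and a threshold of 0.01. Genes past it are called. Besides the groups compared, the fit held cells with the C1252A/C1255A transgene given Ad-Cre, and Terf1 F/F MEFs given Ad-GFP or Ad-Cre. CPM values used the TMM-normalised library sizes. TMPyP4 was compared with +GFP, and also with +Cre and CA +GFP. Samples were grouped by their titles. Over 11840 genes, libraries with the same number deviated together from the means of their groups, with correlations of 0.724, 0.758 and 0.409 between +TMPyP4 and +Cre and of 0.776, 0.693 and 0.303 between +TMPyP4 and CA +GFP, so these numbers were taken to pair the libraries, and fits with the number as a block, within the line against +Cre and over all Rtel1 F/F groups against CA +GFP unless stated, are given where they change a call.

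Named genes were Rtel1 and the leading genes of each list, the 10 largest rises and falls called against +GFP whose mean reached 5 CPM and whose groups did not overlap, up to 3 rises and 3 falls per list at a mean of at least 1 CPM, and the 5 largest rises and falls against +Cre by the same floor of 5 CPM among genes called in both comparisons. Others are said to have been chosen after their values were seen. The members and the gene lists were chosen with earlier results of these data known. The alternatives tried were 2 other filters, DESeq2 1.42.0, edgeR with the size factors of DESeq2, a fit of only the groups compared, GC correction by loess, the replicate block, other thresholds and leaving out each library. The genes called in all 3 comparisons and the block over all Rtel1 F/F groups were added after seeing the data. Promoters and gene spans came from RefSeq tables (GRCm38.p6), in which 23363 of 24454 symbols matched directly, 975 through a synonym and 116 not at all. Transcript GC content was that of the longest transcript of each gene in the GENCODE mouse transcripts. The scripts were tested on simulated counts with known fold changes. Some genes are not reported here.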

Additional observations from a re-analysis of the deposited data

How the results depend on the processing

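Against +GFP, 4114 genes were called, 2278 higher and 1836 lower. With a log2 fold change of at least 1 asked for as well they were 921, 200 and 721, and with CA +GFP as control 2333, 1363 and 970. The replicate block with GC correction raised the lower genes to 3063, and leaving out 1 library gave 2466 to 4110 genes, 1156 to 2209 higher and 1288 to 1901 lower. Against +Cre (2088, with 1247 higher and 841 lower), the block with GC correction gave 3828, 2298 and 1530, a fit of only those groups 933, 570 and 363, an adjusted p of at most 0.05 gave 3452, 1953 and 1499, and the fold threshold 466, 283 and 183. Leaving out 1 library gave 752 to 991 higher and 540 to 675 lower, the fewest higher without +Cre replicate 3 and the fewest lower without +TMPyP4 replicate 1. Against CA +GFP (2333, with 1363 and 970), the block with GC correction gave 4111, 2517 and 1594, only the groups compared 1218, 719 and 499, the 0.05 threshold 3750, 2075 and 1675, and the fold threshold 655, 384 and 271, with 860 to 1041 higher and 598 to 1083 lower without 1 library. Genes higher and lower in all 3 comparisons, 184 and 67, became 92 and 17 with only the groups compared, 374 and 127 with the block and GC correction, 321 and 134 at 0.05, 18 and 14 with the fold threshold, and 108 to 167 and 32 to 66 without 1 library. With CA +GFP as control the medians by GC class were -0.037, -0.028, -0.011, 0.054 and 0.142, and by span class, from the shortest, -0.004, 0.015, 0.016, 0.048 and 0.110.

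The plain replicate block against +GFP gave 5434 genes, but these numbers did not pair +TMPyP4 with +GFP, with correlations of 0.0242, 0.0502 and 0.133. Every +TMPyP4 library nevertheless correlated best with its own number in +GFP, a hint from the data only. Beyond the changes given in the report, the block added calls of Brip1, Grem1, Isg15, Nhp2, Npm1 and Nqo1 against +Cre and, over all Rtel1 F/F groups, of Mcm5, Mki67, Nhp2, Pdgfrb and Serpinb9b against CA +GFP. A block within each line gave 3106 genes against CA +GFP and these same 5 calls, and it also added Col3a1 (adjusted p = 0.00759). These blocks changed no other call of a named gene against +Cre or CA +GFP.

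With CA +GFP as control the log2 fold change of 54 of the genes named changed sign against that from +GFP. It was above 0 for Acd 0.24, C3 2.09, Ccl5 1.33, Col3a1 0.30, Csrp2 0.08, Cyp1b1 0.78, Dlg2 0.65, Enpep 2.08, Fmod 1.75, Fzd1 1.67, Helb 0.03, Hmcn1 0.31, Id1 0.16, Id3 1.36, Ifit1 0.63, Igf1 2.37, Isg15 0.63, Islr 2.64, Kit 0.35, Lig1 0.08, Lrrc17 1.63, Mmp9 1.84, Ndnf 2.23, Pdgfrb 0.42, Prkg1 0.32, Psmb8 0.42, Serpina3g 2.45 and Tnfrsf9 0.02. It was below 0 for Ankrd1 -0.45, Ctgf -0.11, Ddx11 -0.03, Ddx21 -0.60, Dkc1 -0.57, Ercc3 -0.15, Gjb2 -0.22, Gm12603 -1.18, Grem1 -0.97, Hspa5 -0.32, Hspa8 -0.16, Hspd1 -0.25, Ldha -0.53, Mdm2 -0.16, Mfap3l -1.14, Naf1 -0.37, Ncl -0.35, Nhp2 -0.40, Nog -0.99, Npm1 -0.49, Psmd14 -0.36, Ptgs2 -1.0, Rgs16 -0.33, Rpl30 -0.28, Rtel1 -2.20 and Tfrc -1.05. The other alternatives reversed none. The cause of these changes was not tested. The longer loop for G4 motifs was not run, since too few promoters had a sequence. List counts that moved by fewer than 3 genes against +Cre or CA +GFP are not given.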
